A study of Drosophila melanogaster with 17 samples.

Results

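The Enhancer of split genes of Drosophila, written E(spl), were followed in eye discs mutant for dDP or deleted for de2f1 and in discs exposed to gamma radiation. The members are the genes whose symbol starts with E(spl) and that have a probe set annotated to that gene alone, which gave 9 of the 11982 genes with such a probe set. Each member has 1 probe set. They are E(spl)mdelta-HLH, E(spl)mbeta-HLH, E(spl)malpha-BFM, E(spl)m2-BFM, E(spl)m3-HLH, E(spl)m4-BFM, E(spl)m5-HLH, E(spl)m6-BFM and E(spl)m7-HLH. In the RefSeq gene order they lie in that sequence on chromosome arm 3R. E(spl)mgamma-HLH and E(spl)m8-HLH belong to the same cluster and were not analysed here.

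The samples are eye imaginal discs of 3rd instar larvae raised at 25 °C. The 6 groups are dDP mutant discs irradiated with 40 Gy (3 arrays) and untreated (3 arrays), de2f1 discs irradiated (3 arrays) and untreated (3 arrays), and wild type (WT) discs irradiated (2 arrays, numbered 1 and 3) and untreated (3 arrays). Irradiated discs were dissected 4 h after exposure. In the de2f1 discs the gene was deleted in the posterior of the disc, so the anterior cells of the same sample still carry it. The alleles, the driver of the deletion and the number of discs pooled per array are not given in the labels. Dp is the protein with which E2F transcription factors pair on DNA, and E2f1 is the activating E2F of the fly. RNA was measured on Affymetrix Drosophila Genome 2.0 arrays, and all values below are log2 RMA values, on which a difference of 1 is a doubling.

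Notch is a receptor that a neighbouring cell activates through the ligand Delta. The cleaved receptor enters the nucleus, joins the DNA-binding protein Su(H) and switches on the E(spl) genes. The HLH members encode basic helix-loop-helix repressors that recruit the corepressor Groucho to proneural genes. The BFM members belong to the Bearded family, small proteins that restrain Neuralized, the ubiquitin ligase that makes Delta active in the sending cell. In the eye disc this circuit reduces groups of cells that express the proneural gene ato in the morphogenetic furrow to single R8 photoreceptor founders.

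The Dp signal was reduced on every dDP array. Dp read 8.25 to 8.88 in irradiated dDP discs, against 10.04 to 10.23 in irradiated WT discs, and 8.06 to 8.94 in untreated dDP discs, against 10.37 to 10.42 in untreated WT discs. E2f1 was not analysed here because its probe set is shared with another gene. Eye disc markers averaged 10.90 to 11.25 on the 17 arrays and none of the 5 was at background. Other markers differed between arrays. Salivary gland markers averaged 6.45, 12.72 and 13.05 on irradiated dDP arrays 1 to 3, 5.72 to 6.04 in untreated dDP discs, 6.43 on untreated de2f1 array 1 and 10.08 to 12.85 on every other array. Fat body markers averaged 11.18 on untreated dDP array 1 and 5.55 to 10.30 elsewhere. The 3-prime actin control probes read above the 5-prime ones by 3.05 and 3.26 on untreated dDP arrays 2 and 3, against 1.69 to 2.28 on the other arrays.

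The 9 members differed in signal and in spread. E(spl)mdelta-HLH, E(spl)mbeta-HLH, E(spl)malpha-BFM, E(spl)m2-BFM, E(spl)m3-HLH and E(spl)m4-BFM lay between 11.19 and 12.68 on all 17 arrays, and E(spl)m7-HLH lay between 10.45 and 11.01. E(spl)m5-HLH had the widest range of the members, 6.92 to 8.64. E(spl)m6-BFM read 3.89 to 4.26, below the 4.60 that was the highest lower quartile of any array, and so carried no usable signal in these discs. Probe sets differ in binding, so these ranges do not rank the genes by abundance. The array to array SD over all samples was 0.08 for E(spl)m4-BFM and 0.45 for E(spl)m5-HLH.

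**Figure D1:**
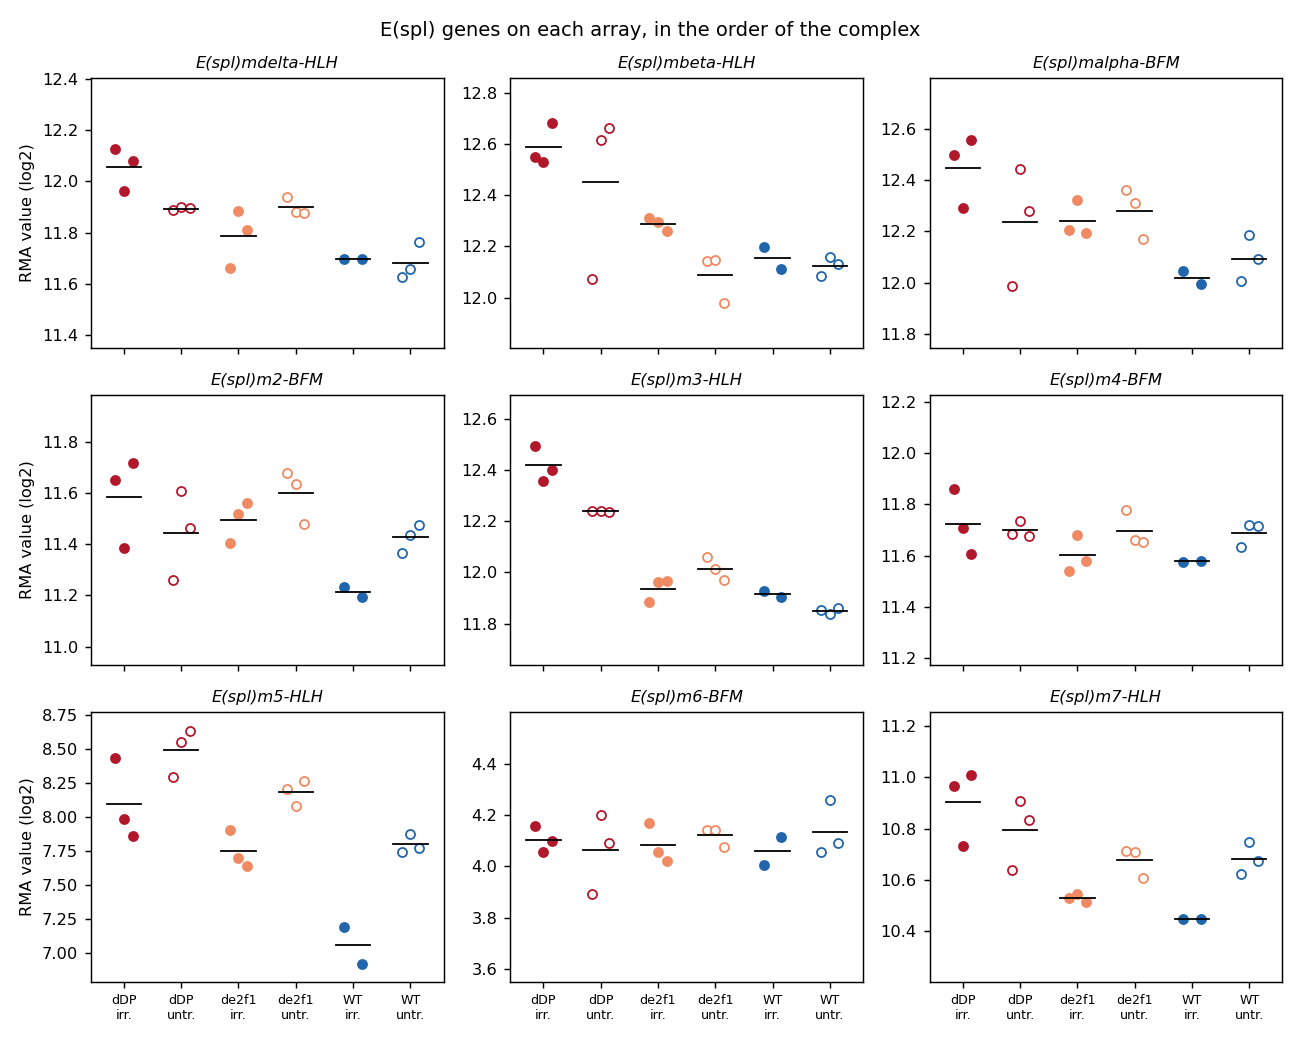
Log2 RMA value of each E(spl) gene (vertical axis, scaled separately in each panel) on every array, by group (horizontal axis); filled points are irradiated discs, open points untreated discs, and black lines group means. Irradiated dDP discs stand highest for E(spl)m3-HLH at 12.36 to 12.49, and irradiated WT discs stand lowest for E(spl)m5-HLH at 6.92 and 7.19.

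After irradiation, 7 of the 9 E(spl) genes were higher in dDP than in WT discs and none was lower, by limma with Benjamini-Hochberg adjustment over all 18769 probe sets at 0.05. The count was 4 without either irradiated WT array or without irradiated dDP array 3, and the share of all probe sets called in those fits is not given here. With all arrays, 10.2% of all probe sets were higher and 13.0% lower in the same comparison. The median difference of the members was 0.43, against -0.05 over all probe sets. The 7 genes were 5 HLH repressors and the Bearded family members E(spl)malpha-BFM and E(spl)m2-BFM. For 8 members, E(spl)m4-BFM included, every irradiated dDP array lay above both irradiated WT arrays, and no member lay wholly below. Over all probe sets 18.8% separated upward in this way and 31.2% downward. In whole discs, a change in the number of cells that express a gene and a change in RNA per cell cannot be told apart.

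E(spl)m5-HLH, a repressor of the HLH set, showed the largest difference of the 9. It read 8.44, 7.98 and 7.86 in irradiated dDP discs, against 7.19 and 6.92 in irradiated WT discs. All dDP arrays were above both WT arrays, and the difference was 1.04 ± 0.15 (SE), a 2.05-fold higher signal (limma, adjusted p = 0.000173). E(spl)m3-HLH, another repressor of the HLH set, read 12.49, 12.36 and 12.40 in irradiated dDP discs, against 11.93 and 11.90 in irradiated WT discs. The groups did not overlap, and the difference of 0.50 ± 0.05 was 1.42-fold (limma, adjusted p = 5.12e-06).

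E(spl)m7-HLH, another such repressor, read 10.97, 10.73 and 11.01 in irradiated dDP discs, against 10.45 and 10.45 in irradiated WT discs. The difference was 0.46 ± 0.09 (limma, adjusted p = 0.00138). E(spl)mdelta-HLH, the repressor at the other end of the cluster, read 12.12, 11.96 and 12.08 in irradiated dDP discs, against 11.70 and 11.70 in irradiated WT discs. Here too the dDP arrays lay above both WT arrays, by 0.36 ± 0.07 on average (limma, adjusted p = 0.00135). The calls for E(spl)m3-HLH, E(spl)m5-HLH, E(spl)m7-HLH and E(spl)mdelta-HLH held under all 29 other settings and left-out arrays that were tried. Not all of these alternatives, here and below, are separate checks. Each member has 1 probe set, so the choice of probe set could not change its value. Leaving out an array outside a comparison leaves the difference unchanged and alters only its error and the adjustment.

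The other 3 calls were less firm. E(spl)mbeta-HLH read 12.55, 12.53 and 12.68 in irradiated dDP discs, against 12.20 and 12.11 in irradiated WT discs, a difference of 0.43 ± 0.13 (limma, adjusted p = 0.0266). E(spl)malpha-BFM read 12.50, 12.29 and 12.55 in irradiated dDP discs, against 12.04 and 11.99 in irradiated WT discs, a difference of 0.43 ± 0.11 (limma, adjusted p = 0.0143). E(spl)m2-BFM read 11.65, 11.38 and 11.72 in irradiated dDP discs, against 11.23 and 11.19 in irradiated WT discs, a difference of 0.37 ± 0.11 (limma, adjusted p = 0.0220). None of these groups overlapped, yet these 3 genes missed the threshold without either WT array or without dDP array 3. Their adjusted p values were then 0.0531 to 0.158. Without dDP array 1, the irradiated dDP array with low salivary gland markers, the count was 6. The share of all probe sets called in that fit is not given here either. E(spl)m4-BFM, of the Bearded family, missed the test at 0.15 ± 0.07 (limma, adjusted p = 0.172), and E(spl)m6-BFM differed by 0.04 ± 0.09 at background signal.

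Some markers of other cell types also differed between these groups, beside 10.2% of all probe sets higher and 13.0% lower. In lists of 4 to 6 genes, a count of 1 is not far from that share. Hemocyte markers averaged 7.09 to 7.48 in irradiated dDP discs, against 8.21 to 8.26 in irradiated WT discs, and 5 of the 7 passed as lower. Photoreceptor markers averaged 9.87 to 10.05 in irradiated dDP discs, against 9.47 to 9.49 in irradiated WT discs, and 1 of the 6 measured (chp, a photoreceptor membrane protein, at 1.04) passed as higher. Fat body markers averaged 8.01 to 9.68 in irradiated dDP discs, against 6.36 to 7.06 in irradiated WT discs, and none of the 4 measured passed. Glial markers averaged 8.39 to 8.78 in irradiated dDP discs, against 8.76 to 8.81 in irradiated WT discs, and 1 of the 4 passed as lower (repo, the transcription factor that defines glia, at -1.18). No marker of these lists was at background on every array. Yp1, 1 of the 4 fat body markers, lay near background, with group means of 4.34 to 4.53, and so gives no usable level. Furrow markers averaged 9.96 to 10.03 in irradiated dDP discs, against 10.02 to 10.04 in irradiated WT discs. Of the 4 furrow markers measured, 1 passed as lower (ato, described below). Of the 5 eye disc markers, 1 passed as higher. The part these cells have in the E(spl) values was not tested.

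The dDP discs were also set against de2f1 discs, which differ in the E2F component removed and in where it is removed. In irradiated discs 3 of 9 members were higher in dDP and none was lower, beside 11.6% of all probe sets higher and 14.3% lower. The 3 were E(spl)m3-HLH at 0.48 ± 0.04 (limma, adjusted p = 3.23e-06), E(spl)m7-HLH at 0.37 ± 0.08 (adjusted p = 0.00249) and E(spl)mdelta-HLH at 0.27 ± 0.06 (adjusted p = 0.00441). E(spl)m3-HLH read 11.88, 11.96 and 11.96 in irradiated de2f1 discs, below every dDP array given above. E(spl)m7-HLH read 10.53, 10.55 and 10.52 there, and E(spl)mdelta-HLH read 11.66, 11.88 and 11.81. All 3 calls held under the 29 alternatives. Markers moved here as well. Hemocyte markers averaged 7.09 to 7.48 in irradiated dDP discs, against 8.40 to 8.68 in irradiated de2f1 discs, with 6 of 7 lower. Photoreceptor markers averaged 9.87 to 10.05 in irradiated dDP discs, against 9.41 to 9.66 in irradiated de2f1 discs, with 2 of 6 higher. Of 4 glial markers 2 were lower, and of 4 furrow markers 2 were higher and 1 lower. Their part in the result was not tested.

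Set against WT, irradiated de2f1 discs had 1 member called. E(spl)m5-HLH read 7.91, 7.70 and 7.64 in irradiated de2f1 discs, against the WT values of 7.19 and 6.92, and was higher by 0.69 ± 0.15 (limma, adjusted p = 0.0103). Over all probe sets 3.68% were higher and 4.94% lower. Without WT array 3 this call was lost (0.55, adjusted p = 0.163). Markers differed here too, with 1 of 7 hemocyte and 1 of 5 eye disc markers higher and 1 of 4 glial and 1 of 4 furrow markers lower. Their part in the E(spl) values was not tested. All 9 E(spl) differences had a positive sign, with a median of 0.09. E(spl)m6-BFM, at background signal, was among them at 0.02, and the members share the same arrays. Besides E(spl)m5-HLH, the 95% interval lay above 0 only for E(spl)m2-BFM (0.28, interval 0.05 to 0.51, limma, adjusted p = 0.142), and it covered 0 for the other 7 members.

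**Figure D2:**
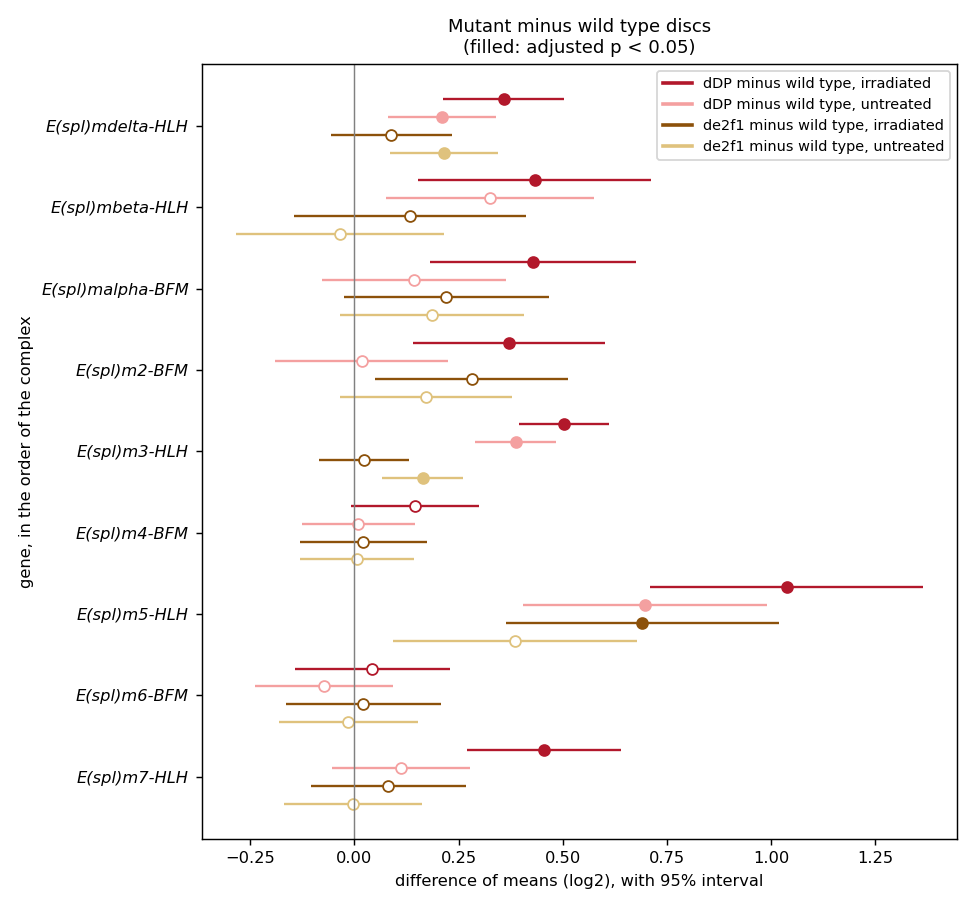
Difference of group means between mutant and WT discs (horizontal axis, log2 units) for each E(spl) gene in the order of the cluster (vertical axis), with 95% intervals of the limma fit; filled points have an adjusted p under 0.05. In irradiated dDP discs 7 of the 9 points are filled, and E(spl)m5-HLH is farthest from 0 at 1.04.

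In untreated discs fewer members separated the genotypes. In dDP against WT discs 3 of 9 were higher and none was lower, beside 12.1% of all probe sets higher and 15.9% lower. E(spl)m3-HLH read 12.24 on all 3 untreated dDP arrays, against 11.85, 11.84 and 11.86 in untreated WT discs. The groups were far apart for their spread, with a difference of 0.39 ± 0.04 (limma, adjusted p = 1.65e-05), and this call held in all 29 alternatives. E(spl)m5-HLH read 8.30, 8.55 and 8.64 in untreated dDP discs, against 7.75, 7.88 and 7.78 in untreated WT discs. It was higher by 0.70 ± 0.14 (limma, adjusted p = 0.00137).

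E(spl)mdelta-HLH read 11.89, 11.90 and 11.90 in untreated dDP discs, against 11.63, 11.66 and 11.76 in untreated WT discs. It was higher by 0.21 ± 0.06 (limma, adjusted p = 0.0171), with no overlap, and missed the threshold in 5 alternatives. Salivary gland markers differed between these groups, at 5.72 to 6.04 in untreated dDP discs, against 10.08 to 12.61 in untreated WT discs. With their mean as a covariate E(spl)m5-HLH stood at 0.51 (adjusted p = 0.0595) and E(spl)mdelta-HLH at 0.14 (adjusted p = 0.262), and E(spl)m3-HLH passed at 0.31 (adjusted p = 0.00127). Without untreated dDP arrays 2 and 3, those with the high actin ratio, E(spl)m5-HLH stood at 0.50 (adjusted p = 0.0834) and E(spl)mdelta-HLH at 0.20 (adjusted p = 0.136), on 1 dDP array assumed to vary like the others. Hemocyte markers averaged 7.49 to 7.95 in untreated dDP discs, against 8.30 to 8.79 in untreated WT discs, with 6 of 7 lower and 1 higher. Fat body markers averaged 7.10 to 11.18 in untreated dDP discs, against 5.55 to 6.43 in untreated WT discs, with none of 4 called. Of the 8 salivary gland markers 6 were lower. Of the other lists, 2 of 6 photoreceptor markers were higher. Lower were 1 of 4 glial, 1 of 4 furrow and 1 of 3 antennal disc markers. These marker counts stand beside 12.1% of all probe sets higher and 15.9% lower. The part of these cells in the E(spl) values was not tested.

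E(spl)mbeta-HLH split the untreated dDP arrays. It read 12.07, 12.61 and 12.66 in untreated dDP discs, against 12.08, 12.16 and 12.13 in untreated WT discs. Array 1 lay at the WT level and arrays 2 and 3 above it, and the mean difference of 0.33 ± 0.12 just missed the threshold (limma, adjusted p = 0.0516). Without array 1 it passed at 0.51 (adjusted p = 3.85e-05), and without arrays 2 and 3 it stood at -0.05 (adjusted p = 0.741). Untreated dDP array 1 was the lowest of its group for 7 of the 9 members. Without it 5 members passed against WT, E(spl)malpha-BFM (0.27, limma, adjusted p = 0.0333) among them. The share of all probe sets called without this array is not given here.

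Against untreated de2f1 discs, 2 of 9 members were higher in untreated dDP discs and none was lower, beside 10.4% of all probe sets higher and 11.9% lower. E(spl)m3-HLH was 12.24 on every untreated dDP array, against 12.06, 12.01 and 11.97 in untreated de2f1 discs, a difference of 0.22 ± 0.04 (limma, adjusted p = 0.00238) that held in all alternatives. E(spl)mbeta-HLH passed at 0.36 ± 0.12 (limma, adjusted p = 0.0392), but dDP array 1 lay within the de2f1 values of 12.14, 12.15 and 11.98. In the same comparison 5 of 7 hemocyte, 2 of 4 glial, 2 of 5 eye disc and 2 of 8 salivary gland markers were lower. Higher were 2 of 6 photoreceptor and 1 of 3 antennal disc markers. Of 4 furrow markers 1 was higher and 1 lower. The part of these markers was not tested. The E(spl)mbeta-HLH call was lost without any single untreated de2f1 array or without dDP array 2 or 3, and its sign turned without dDP arrays 2 and 3 together, to -0.0153 (adjusted p = 0.927).

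In untreated de2f1 against WT discs, 2 of 9 members were higher and none was lower, beside 3.89% of all probe sets higher and 5.10% lower. E(spl)m3-HLH had the de2f1 values just given, against 11.85, 11.84 and 11.86 in untreated WT discs, a difference of 0.16 ± 0.04 (limma, adjusted p = 0.0355). E(spl)mdelta-HLH read 11.94, 11.88 and 11.88 in untreated de2f1 discs, against 11.63, 11.66 and 11.76 in untreated WT discs, a difference of 0.22 ± 0.06 (limma, adjusted p = 0.0392). Neither gene overlapped between the groups. The call was lost in 7 of 29 alternatives for E(spl)m3-HLH and in 14 of 29 for E(spl)mdelta-HLH. No member passed without WT array 1 or 2, or without de2f1 array 1 or 2, and 1 passed without array 3 of either group. For these fits the share of all probe sets called is not given here. Between these groups 1 of 7 hemocyte markers was higher and 1 of 4 glial markers lower, and their part was not tested.

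Across the 6 groups E(spl)m3-HLH gave the most regular order. Its means ran from irradiated dDP (12.42 ± 0.07, SD, n = 3) through untreated dDP (12.24 ± 0.00078, n = 3), untreated de2f1 (12.01 ± 0.04, n = 3), irradiated de2f1 (11.94 ± 0.05, n = 3) and irradiated WT (11.91 ± 0.02, n = 2) to untreated WT discs (11.85 ± 0.01, n = 3). Among neighbours in this order, only irradiated de2f1 and irradiated WT discs overlapped. E(spl)m5-HLH ran from untreated dDP (8.50 ± 0.18, n = 3) to irradiated WT discs (7.06 ± 0.19, n = 2), each clear of its neighbour, and the 4 groups between them each overlapped with the next of the 4. For E(spl)malpha-BFM, E(spl)m4-BFM and E(spl)m6-BFM every group overlapped with the next.

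Irradiation changed few E(spl) genes within a genotype. In dDP discs 1 of 9 members rose and none fell, beside 4.45% of all probe sets higher and 4.38% lower. In de2f1 discs none of 9 passed, beside 1.37% higher and 0.927% lower, and by limma without adjustment 1 of 9 had p under 0.05. In WT discs none rose and 1 of 9 fell, beside 2.59% higher and 1.92% lower. The median change of the members was 0.14 in dDP, -0.10 in de2f1 and -0.07 in WT discs, against -0.03, -0.0095 and -0.0028 over all probe sets.

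E(spl)m5-HLH was the gene that fell in WT discs. It read 7.19 and 6.92 in irradiated WT discs, against 7.75, 7.88 and 7.78 in untreated WT discs, with no overlap, and fell by 0.74 on the log2 scale (-0.74 ± 0.15, limma, adjusted p = 0.00996). Without irradiated WT array 3 the difference was -0.61 and missed the threshold (adjusted p = 0.183). In de2f1 discs it read 7.91, 7.70 and 7.64 after irradiation, against 8.21, 8.08 and 8.27 untreated, also without overlap (-0.44 ± 0.14, adjusted p = 0.158). In dDP discs it read 8.44, 7.98 and 7.86 after irradiation, against 8.30, 8.55 and 8.64 untreated, and irradiated array 1 lay within the untreated range (-0.40 ± 0.14, adjusted p = 0.0865). Without that array the dDP difference was -0.57 and passed (adjusted p = 0.00874), and without untreated dDP array 1 it was -0.50 and passed (adjusted p = 0.0260).

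E(spl)m3-HLH was the gene that rose in dDP discs. It read 12.49, 12.36 and 12.40 after irradiation, against 12.24 on all 3 untreated arrays, a difference of 0.18 ± 0.04 (limma, adjusted p = 0.0238). The untreated dDP arrays had an SD of 0.00078 for this gene, far under the usual spread. The call was lost in 8 of 29 alternatives, among them leaving out untreated array 2 or 3 or irradiated array 1 or 3, with adjusted p values of 0.0902 or less when a single array was left out and of 0.272 when the dDP arrays were fitted alone. The salivary gland markers also differed here, at 6.45, 12.72 and 13.05 in irradiated dDP discs, against 5.72 to 6.04 in untreated dDP discs.

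**Figure D3:**
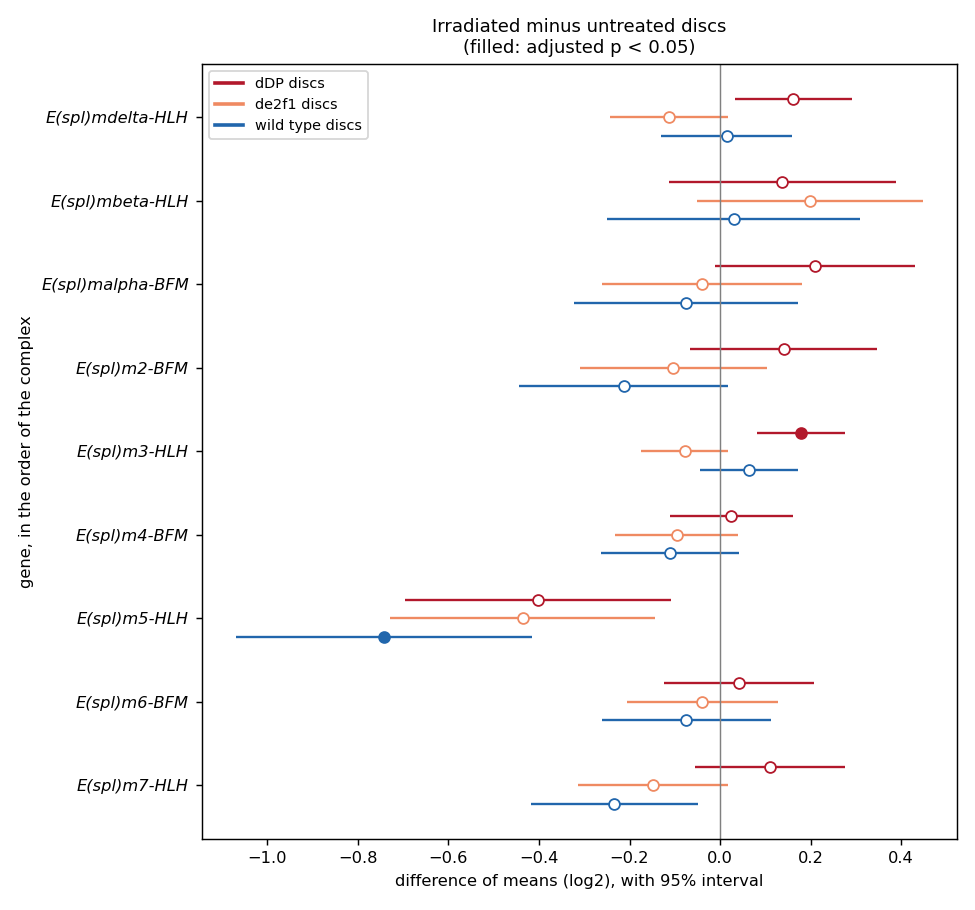
Difference of group means between irradiated and untreated discs (horizontal axis, log2 units) for each E(spl) gene in the order of the cluster (vertical axis) in dDP, de2f1 and WT discs, with 95% intervals of the limma fit; filled points have an adjusted p under 0.05. Only E(spl)m3-HLH in dDP discs (0.18) and E(spl)m5-HLH in WT discs (-0.74) are filled.

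The difference of the irradiation effect between genotypes was tested directly, and no member passed. For dDP against WT, 0 of 9 passed beside 0.202% of all probe sets, and 2 of 9 had an unadjusted limma p under 0.05. All 9 differences were positive, from 0.11 to 0.35. E(spl)m6-BFM, at background signal, was among them at 0.12, and all members share the same arrays, so these signs are not independent. E(spl)m7-HLH had the smallest p of the 9, with a difference of 0.34 ± 0.12 (limma, adjusted p = 0.382) and an interval of 0.09 to 0.59. For de2f1 against WT, 0 of 9 passed beside 0.0533% of all probe sets, and 0 had an unadjusted p under 0.05. For dDP against de2f1, 0 of 9 passed beside 0.117%, and 3 had an unadjusted p under 0.05. There E(spl)m3-HLH differed by 0.26 ± 0.06 (limma, adjusted p = 0.174) and E(spl)mdelta-HLH by 0.27 ± 0.09 (adjusted p = 0.301). These contrasts share arrays with those above. The larger number of members called between irradiated dDP and WT discs, 7 against 3 in untreated discs, is thus not shown to be an effect of irradiation.

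Members moved together from array to array to differing degrees. Over the 17 arrays Pearson's r was 0.89 between E(spl)mdelta-HLH and E(spl)m3-HLH and 0.87 between E(spl)malpha-BFM and E(spl)m2-BFM. After removing group means it was 0.78 and 0.89. Between E(spl)mdelta-HLH and E(spl)m5-HLH it was 0.56, and 0.02 after removing group means. E(spl)m6-BFM, at background signal, reached 0.74 with both E(spl)malpha-BFM and E(spl)m7-HLH after removing group means. An r of this size thus arose without usable signal of 1 partner. These values describe arrays that share groups and RNA quality and carry no test. Outside the complex, the genes whose values most resembled the members' mean over the 17 arrays were TTLL6B (r = 0.91), CG1698 (0.90), timeout (0.90), CG12708 (0.90) and CG8908 (0.89). These stood highest among 4187 genes with an SD of at least 0.2, of which 5% had an r above 0.78.

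Of the cluster's other genes, 2 were measured. Kaz-m1, which lies between E(spl)malpha-BFM and E(spl)m2-BFM, and gro, which encodes Groucho and lies beyond E(spl)m8-HLH, passed in none of the 12 comparisons. Kaz-m1 lay near background in WT and de2f1 discs, with group means of 4.51 to 4.71. Its lack of a call therefore says little about its RNA level. Groucho is the corepressor the HLH members use. gro read 10.88, 10.73 and 10.85 in irradiated dDP discs, against 10.66 and 10.76 in irradiated WT discs (0.11 ± 0.11, limma, adjusted p = 0.518). It read 10.96, 10.60 and 10.50 in untreated dDP discs, against 10.81, 10.75 and 10.74 in untreated WT discs (-0.08 ± 0.10, adjusted p = 0.618).

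Of 21 listed Notch pathway genes 15 were measured. N, Ser and Su(H) were not analysed here. In irradiated dDP against WT discs 1 of the 15 was higher and none lower, beside 10.2% and 13.0% of all probe sets, with a median of -0.02, against -0.05 over all probe sets. The gene was Psn, the catalytic subunit of the gamma-secretase that releases the Notch intracellular domain, at 0.22 ± 0.06 (limma, adjusted p = 0.0182). In untreated dDP against WT discs 2 were higher and 3 lower, beside 12.1% and 15.9% of all probe sets, so these counts are near the background. The higher ones were Psn (0.24 ± 0.05, adjusted p = 0.00357) and pen-2, another gamma-secretase subunit (0.26 ± 0.05, adjusted p = 0.000981). The lower ones were H, or Hairless, which antagonises Su(H) (-0.48 ± 0.12, adjusted p = 0.00938), Su(dx), a ubiquitin ligase that lowers Notch activity (-0.51 ± 0.09, adjusted p = 0.000829), and dx, a regulator of Notch trafficking (-0.20 ± 0.06, adjusted p = 0.0230). Without untreated dDP arrays 2 and 3, those with the high actin ratio, none of the 5 untreated calls held (adjusted p = 0.0530 for pen-2 to 0.471 for H). The Psn call in irradiated discs was lost without either WT array and without dDP array 1 or 3 (adjusted p = 0.0588 to 0.132).

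The ligand gene Delta, read from the probe set with the higher mean of its 2, passed in no comparison. It read 12.06, 12.16 and 12.21 in irradiated dDP discs, against 12.03 and 12.12 in irradiated WT discs (0.07 ± 0.17, limma, adjusted p = 0.826). In untreated discs it read 12.20, 11.82 and 11.62 in dDP, against 12.12, 12.22 and 11.97 in WT (-0.23 ± 0.15, adjusted p = 0.327), and the groups overlapped both times. On irradiation pen-2 rose in WT discs (0.39 ± 0.05, limma, adjusted p = 0.000378) and in de2f1 discs (0.29 ± 0.05, adjusted p = 0.00317). It was the only pathway gene called on irradiation in any genotype. In dDP discs its mean was 10.32 after irradiation, against 10.24 untreated, and it did not pass. No pathway gene passed when the irradiation effect was compared between genotypes.

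The proneural gene ato, a target that the E(spl) repressors restrict in the furrow, was lower in dDP discs. It read 10.07, 10.03 and 9.85 in irradiated dDP discs, against 10.42 and 10.44 in irradiated WT discs (-0.44 ± 0.09, limma, adjusted p = 0.00167). It read 9.98, 10.13 and 10.11 in untreated dDP discs, against 10.43, 10.64 and 10.51 in untreated WT discs (-0.45 ± 0.08, adjusted p = 0.000497). Every dDP array lay below every WT array in both states. Against de2f1 discs ato was lower in dDP by -0.39 ± 0.08 after irradiation (adjusted p = 0.00194) and by -0.46 ± 0.08 in untreated discs (adjusted p = 0.000587).

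sens, which encodes the zinc finger protein Senseless that R8 cells need, was lower too. It read 8.81, 8.97 and 8.98 in irradiated dDP discs, against 9.28 and 9.31 in irradiated WT discs (-0.38 ± 0.09, limma, adjusted p = 0.00827), and 8.86, 8.49 and 8.64 in untreated dDP discs, against 9.26, 9.20 and 9.29 in untreated WT discs (-0.58 ± 0.08, adjusted p = 9.62e-05). No arrays overlapped, but the irradiated call was lost without WT array 3 (adjusted p = 0.0625). Of the 12 listed proneural and furrow genes 11 were measured, and of these none was higher and 2 were lower in irradiated dDP against WT discs, beside 13.0% of all probe sets lower. In untreated discs 4 were lower, beside 15.9% of all probe sets. The other two were the achaete-scute genes sc (-0.41), whose call was lost in 6 alternatives, and l(1)sc. The l(1)sc probe set read 4.24, 4.04 and 4.39 in untreated dDP discs, against 5.03, 4.53 and 4.45 in untreated WT discs, at or near the background of 4.60, and so gives no usable level.

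Hes-type repressors outside the complex, relatives of the HLH members, were partly higher in dDP discs. Of 5 measured, 3 were higher in irradiated dDP against WT discs and none was lower, with a median of 0.30, beside 10.2% of all probe sets higher and 13.0% lower. hry, which encodes Hairy and acts ahead of the furrow, read 12.79, 12.99 and 12.83 in irradiated dDP discs, against 12.24 and 12.47 in irradiated WT discs (0.52 ± 0.10, limma, adjusted p = 0.00171). cwo, the clockwork orange repressor of the circadian clock, read 11.07, 11.18 and 11.16 there, against 10.74 and 10.72 (0.41 ± 0.11, adjusted p = 0.0150). dpn, or deadpan, known for its role in neural stem cells, differed by 0.30 ± 0.08 (adjusted p = 0.0111). The hry call held in all 29 alternatives, the cwo call was lost without either WT array (adjusted p = 0.0741 and 0.0870) and the dpn call without WT array 1 (adjusted p = 0.0947). In untreated discs only cwo passed (0.28 ± 0.10, adjusted p = 0.0474), and hry stood at 0.17 ± 0.09 (adjusted p = 0.191). The cwo call was lost in 20 of 29 alternatives, among them the other of its 2 probe sets (0.32, limma, adjusted p = 0.318).

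Of 4 measured Bearded family genes outside the complex, 1 was higher and 2 were lower in irradiated dDP against WT discs, beside 10.2% and 13.0% of all probe sets. The one that did not pass, BobA, lay near background at 4.01 to 4.96. Ocho read 9.58, 9.67 and 9.65 in irradiated dDP discs, against 7.98 and 8.05 in irradiated WT discs (1.62 ± 0.08, limma, adjusted p = 3.91e-09), and 9.67, 9.55 and 9.54 in untreated dDP discs, against 8.23, 8.36 and 8.29 in untreated WT discs (1.29 ± 0.07, adjusted p = 1.03e-08). It was also higher in dDP than in de2f1 discs, by 1.43 ± 0.07 after irradiation (adjusted p = 5.79e-09). All dDP arrays stood more than 1 log2 unit above all WT arrays.

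Tom and Brd were the 2 that were lower. Tom read 12.96, 13.04 and 13.10 in irradiated dDP discs and 12.94, 13.11 and 13.08 in irradiated de2f1 discs, against 13.34 and 13.41 in irradiated WT discs. The differences were -0.35 ± 0.06 for dDP (limma, adjusted p = 0.00120) and -0.34 ± 0.06 for de2f1 (adjusted p = 0.00413). Tom rose on irradiation in every genotype, by 0.50 ± 0.06 in dDP (adjusted p = 9.09e-05), 0.48 ± 0.06 in de2f1 (adjusted p = 0.000208) and 0.76 ± 0.06 in WT discs (adjusted p = 5.09e-06). Brd read 11.28, 11.32 and 11.20 in irradiated dDP discs and 11.30, 11.48 and 11.36 in irradiated de2f1 discs, against 12.13 and 12.02 in irradiated WT discs (-0.81 ± 0.15 for dDP, limma, adjusted p = 0.00139, and -0.69 ± 0.15 for de2f1, adjusted p = 0.0105). The calls for de2f1 discs rest on the WT arrays, since that of Tom was lost without WT array 3 (adjusted p = 0.0681) and that of Brd without either one (adjusted p = 0.0601 and 0.0978). Brd rose on irradiation in WT discs (0.65 ± 0.15, adjusted p = 0.0232), a call lost without either irradiated WT array or without untreated WT array 2 or 3 (adjusted p = 0.0684 to 0.181), and its differences of 0.19 in dDP and 0.12 in de2f1 discs did not pass. When the irradiation effect was compared between genotypes, none of the 4 measured genes passed, so a weaker rise in the mutants is not shown. None of the Bearded family members inside the complex passed on irradiation in any genotype.

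**Figure D4:**
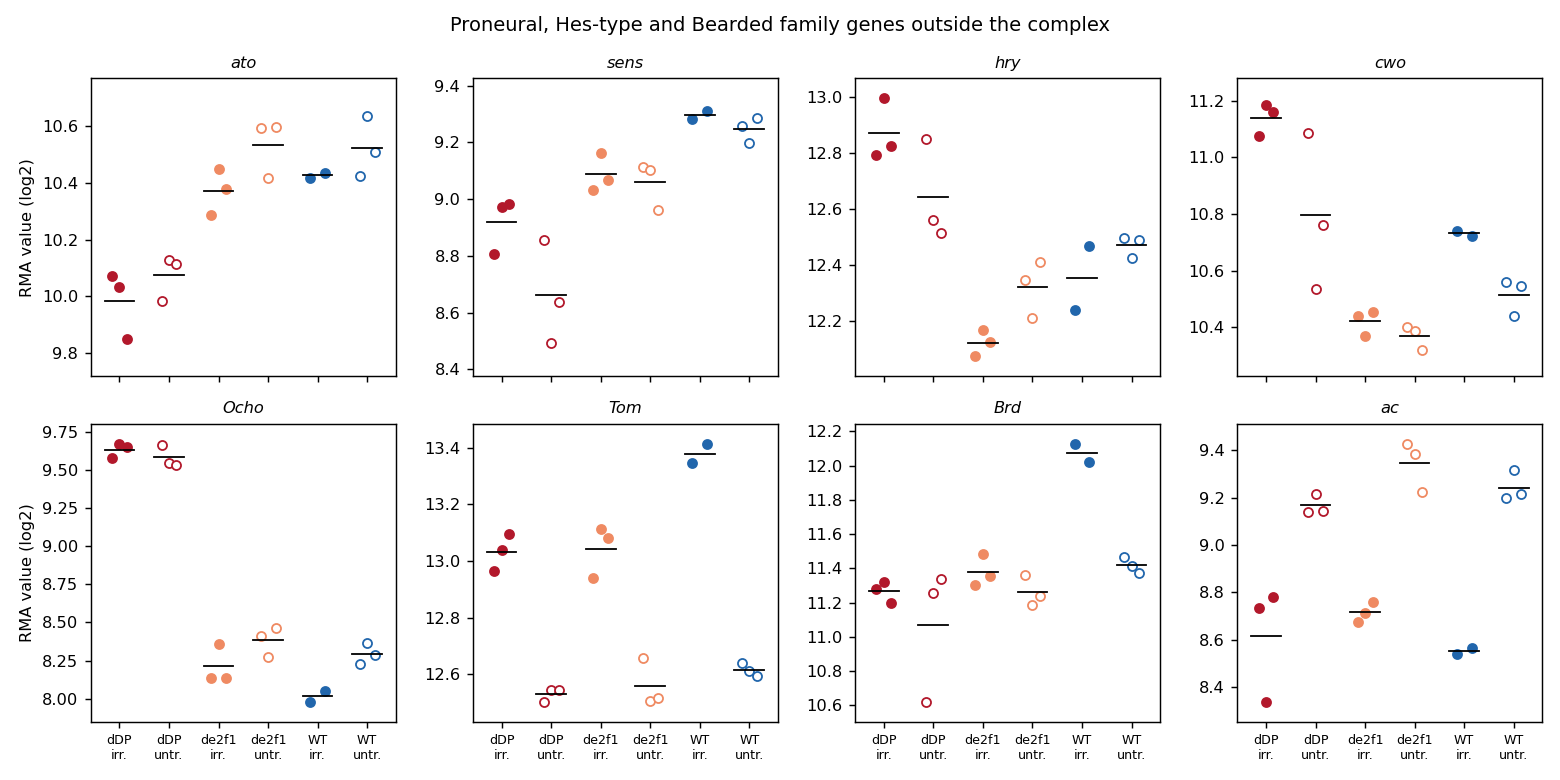
Log2 RMA value (vertical axis, scaled separately in each panel) on every array, by group (horizontal axis), for 8 genes outside the complex, chosen after their values were seen; filled points are irradiated discs, open points untreated discs, and black lines group means. Ocho is highest in both dDP groups, ato is lowest in both dDP groups, and Tom is higher after irradiation in all 3 genotypes.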

How the data were processed

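Per the submitters' processing notes the authors used RMA, of no stated version, and the deposited values are on its log2 scale. They were used without further scaling. Of 18952 probe sets on 17 arrays, 183 controls were left out and 18769 tested. Probe sets were named from GEO's platform annotation: 13647 had 1 gene symbol, 402 several and 4720 none. Array medians were 5.82 to 5.99, and precision is limited by 2 or 3 arrays per group, which the labels call biological replicates. Sample 2 of irradiated WT was not analysed here.

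The 6 group means were fitted jointly in R 4.3.3 by limma 3.58.1 (lmFit, untrended non-robust eBayes). A call needed a p under 0.05 after Benjamini-Hochberg adjustment across every tested probe set. Errors on differences are standard errors, intervals are 95%. The code was tested on simulated data. The members and gene lists were chosen with earlier results of these data known. Every member is named. From the lists, ato, Delta, gro, hry and Tom are named whatever their result, together with some of the called genes. A list gene that is not named for a comparison may also have been called in it. Genes of like pattern were the 5 with the highest Pearson correlation to the members' mean. Sequences were not used here, and RefSeq coordinates served to order the genes of the cluster. Alternatives were another prior, array weights, a filter on dim probe sets, the choice of probe set, quantile normalization, a fit of only the compared arrays, the replicate block, marker and actin covariates, and each array left out. Figures were drawn in Python 3.11.15 with matplotlib 3.10.9 and pandas 2.3.3.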

Additional observations from a re-analysis of the deposited data

How the results depend on the processing

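With 2 or 3 arrays per group, small differences depend on single arrays, and a lone array left in a group is assumed to vary like the others. With 1 array left out the count of E(spl) genes called ranged, for dDP against WT discs, from 4 to 7 (irradiated) and 2 to 5 (untreated); for de2f1 against WT from 0 to 1 and 0 to 3; for untreated dDP against de2f1 from 1 to 3; on irradiation from 0 to 2 in dDP, 0 to 1 in de2f1 and 0 to 1 in WT; and for the dDP to de2f1 difference of the irradiation effect from 0 to 1. Array weights gave counts of 2 on irradiation in dDP, 1 in de2f1 and 2 in WT, 6 for untreated dDP against WT, 4 for untreated dDP against de2f1, 5 for irradiated dDP against de2f1, 2 for irradiated de2f1 against WT and 2 for the dDP to de2f1 difference of effects. Quantile normalization, and fitting only the arrays of the contrast, each left 0 on irradiation in dDP, and the second left 1 each in untreated de2f1 against WT and dDP against de2f1. The salivary gland covariate left 1 in each untreated comparison, and so did leaving out untreated dDP arrays 2 and 3, which gave 2 on irradiation in dDP and turned E(spl)mbeta-HLH in untreated dDP against de2f1 to -0.0153. The actin covariate left 1 in untreated dDP against de2f1. E(spl)m6-BFM is dropped by the filter on dim probe sets. The percentages over all probe sets given above belong to the main fit, so the counts of these alternatives have no background share beside them. Whether a count moved more than the calls over all probe sets is therefore not known. The cause of these changes was not tested.

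The replicate block left 0 members called in untreated de2f1 against WT and 1 in untreated dDP against de2f1 discs. The arrays share only a number: of 40 same-numbered pairs, 7 had deviations that correlated above 0.1, from -0.40 to 0.46.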

Other observations

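The proneural gene ac fell on irradiation in every genotype. It read 8.73, 8.34 and 8.78 in irradiated dDP discs, against 9.14, 9.22 and 9.14 in untreated dDP discs (-0.55 ± 0.09, limma, Benjamini-Hochberg adjusted p = 0.00217). The differences were -0.63 ± 0.09 in de2f1 discs (adjusted p = 0.00154) and -0.69 ± 0.10 in WT discs (adjusted p = 0.00100), and irradiated and untreated arrays did not overlap in any genotype. The dDP call was lost in 3 alternatives (adjusted p = 0.0505 to 0.117).

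Kaz-m1, a gene inside the cluster that encodes a protease inhibitor domain protein, read 7.12 on untreated dDP array 1 and 4.31 to 5.51 on the other 16 arrays. The same array had the highest mean of the fat body markers, 11.18, and the lowest array weight, 0.20.

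dpp, the signal that drives the furrow, read 10.99, 11.10 and 11.13 in irradiated dDP discs, against 10.52, 10.59 and 10.58 in irradiated de2f1 discs (0.51 ± 0.09, adjusted p = 0.000640). It was lower in irradiated de2f1 than in WT discs, by -0.39 ± 0.10 (adjusted p = 0.0230), a call lost without either WT array or without de2f1 array 1 or 3 (adjusted p = 0.0570 to 0.138).

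eyg, an eye growth gene that Notch activates, was lower in untreated dDP than in WT discs (-0.32 ± 0.07, limma, adjusted p = 0.00508). Without untreated dDP arrays 2 and 3 it stood at -0.27. It was the only one of 6 measured other Notch targets called there, beside 15.9% of all probe sets lower, so this count is near the background. Against de2f1 discs eyg was also the 1 called as lower, beside 11.9% of all probe sets in untreated and 14.3% in irradiated discs. The untreated call was lost in 2 alternatives and the irradiated one in 6.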
